A study of Mus musculus with 12 samples.

Results

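The genes described here are the Wnt ligands, their receptors and antagonists, and the genes that feed back on Wnt signalling, in mouse liver cancer cell lines. Members were taken by gene symbol: the Wnt and Fzd (Frizzled) families, Lrp5 and Lrp6, Sfrp1 to Sfrp5, Dkk1 to Dkk4, Rspo1 to Rspo4, Lgr4 to Lgr6, Wif1, Notum, Rnf43, Znrf3, Axin2, Nkd1, Nkd2, Lef1 and Tcf7. This gave 55 of the 47729 genes counted in each library, made up of 19 ligands, 12 receptors, 10 secreted antagonists, 9 genes of the R-spondin module, 3 intracellular feedback genes and 2 transcription factors. RNA was sequenced from 12 libraries of 6 lines. M1, M2 and M3 came from lymph node metastases and T1, T2 and T3 from primary liver tumours, and each line gave 1 library after 48 h in 2 µM PLX4720, an inhibitor of mutant BRAF, and 1 after 48 h in DMSO, its solvent. All 4 groups (metastasis lines with PLX4720, metastasis lines with DMSO, primary lines with PLX4720, primary lines with DMSO) thus hold 3 libraries, and the labels give all of them the BRAFV600E allele and p53 loss. The design text of the series names expression of the allele in hepatocytes and deletion of either Trp53 or Cdkn2a, and it does not say which line carries which. Replicates are cell lines. The labels do not say whether a line is a clone or whether lines share an animal, and T3, M2 and M3 carry a common number in the deposited tables, so their independence is not known.

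Wnt ligands are secreted, lipid-carrying proteins that bind Frizzled receptors together with the co-receptor Lrp5 or Lrp6. In the canonical branch this stops the breakdown of beta-catenin, which then drives transcription with the Tcf and Lef factors. R-spondins bind Lgr4, Lgr5 or Lgr6 and keep the ubiquitin ligases Rnf43 and Znrf3 from removing Frizzled receptors, while Sfrp, Dkk, Wif1 and Notum proteins act outside the cell against the ligands or co-receptors. Several of these genes, Axin2, Rnf43, Znrf3, Lgr5, Nkd1, Notum, Lef1 and Tcf7 among them, are known to be raised by beta-catenin itself, and in normal liver the pathway is known for patterning hepatocytes around the central vein.

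Library totals ran from 31992512 to 39288748 counted fragments, and mitochondrial genes took 0.189% to 0.712% of them in 11 libraries but 3.67% in the PLX4720 library of T3. The label of hepatocellular carcinoma was set against 8 hepatocyte markers. Their summed level was 1.12 to 5.58 CPM (the fragment count relative to the library size, scaled between libraries) in metastasis lines with PLX4720. With DMSO it was 0.387 to 4.88 CPM there, and Alb, Ttr and Tat were at 0 in all 6 metastasis libraries. These markers thus did not bear out that label in metastasis lines, and the origin of the lines was not tested. In primary lines the sum was 942 to 1848 CPM with PLX4720 and 792 to 1466 CPM with DMSO, most of it from Apob and Hnf4a, and Alb reached at most 15.8 CPM. Among 7 fibroblast and stellate markers, 5 stood at 1 CPM or more in every metastasis library, with a summed level of 2190 to 9019 CPM with PLX4720 and 534 to 3118 CPM with DMSO, while Des and Lrat were at 0. In primary lines that sum was 1.93 to 28.1 CPM with PLX4720 and 1.92 to 11.3 CPM with DMSO. The sum of 6 biliary markers did not overlap between treatments in metastasis lines, at 1207 to 2529 CPM with PLX4720 and 4558 to 9099 CPM with DMSO, and overlapped in primary lines, at 1994 to 3105 CPM with PLX4720 and 2519 to 5240 CPM with DMSO. Among them Spp1 fell at both sites, while Krt7 and Krt19 rose in metastasis lines. Between sites the biliary markers Krt19, Krt7 and Epcam were lower in metastasis lines under either treatment, and Cldn4 was at 0 there. These 3 are of 5 biliary markers tested, where 13.5% of all genes passed with PLX4720 and 12.1% with DMSO. The biliary sums thus do not stand for each marker. The summed level of 4 lymph node stroma markers, nearly all of it Pdpn, was 23.6 to 56.3 CPM with PLX4720 and 67.3 to 95.7 CPM with DMSO in metastasis lines, and at most 6.32 CPM with PLX4720 and 3.20 CPM with DMSO in primary lines. Of 6 leukocyte markers the sum was 2.17 to 10.9 CPM over all libraries. The endothelial sum reached 36.9 CPM with PLX4720 and 74.8 CPM with DMSO in primary lines, where T1 held nearly all of it as Tek, and at most 1.75 CPM in metastasis lines. The part of these markers in any result below was not tested, and in such bulk RNA fewer cells of a kind and less RNA per cell cannot be told apart.

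The start-site windows of 4 members are shown because they carry, or in one case lack, the core that Tcf and Lef factors are known to bind, in genes whose transcripts are described below. Windows hold 300 bases, 250 before and 50 after a start of the RefSeq annotation of GRCm38.p6, and 36 of the 55 members had at least 1. The letters searched were CTTTGAA or CTTTGAT or CTTTGTA or CTTTGTT on either strand, and a match is set in capitals, reading 5′ to 3′ along the gene. A match is a description of letters and not a binding site. It was found in 6 of 44 windows of members (13.6%), against 16.9% of the 32851 windows of all genes. The members concerned were Fzd7, Lef1, Wnt5b, Wnt11, Wnt3 and Dkk1. In the windows below it begins at position -130 from the start in Fzd7, -51 in Wnt11 and -147 in Lef1, for the most downstream of 4 Lef1 starts, while the Axin2 window holds none. Another Wnt11 start has a window without a match, at chr7:98838595-98838894, which is not printed.
Axin2, chr11:108920099-108920398, plus strand: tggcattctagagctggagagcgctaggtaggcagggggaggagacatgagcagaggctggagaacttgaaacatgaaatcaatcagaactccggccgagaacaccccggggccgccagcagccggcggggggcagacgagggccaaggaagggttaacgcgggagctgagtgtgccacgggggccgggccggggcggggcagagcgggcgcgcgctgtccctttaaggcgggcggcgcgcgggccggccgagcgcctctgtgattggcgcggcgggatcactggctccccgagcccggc
Wnt11, chr7:98834862-98835161, plus strand: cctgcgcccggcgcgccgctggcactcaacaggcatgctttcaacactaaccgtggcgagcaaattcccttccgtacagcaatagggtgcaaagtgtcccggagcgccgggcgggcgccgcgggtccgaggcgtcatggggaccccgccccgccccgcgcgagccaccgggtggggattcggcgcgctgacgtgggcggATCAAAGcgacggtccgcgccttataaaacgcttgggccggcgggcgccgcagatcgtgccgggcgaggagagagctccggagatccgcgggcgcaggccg
Fzd7, chr1:59481897-59482196, plus strand: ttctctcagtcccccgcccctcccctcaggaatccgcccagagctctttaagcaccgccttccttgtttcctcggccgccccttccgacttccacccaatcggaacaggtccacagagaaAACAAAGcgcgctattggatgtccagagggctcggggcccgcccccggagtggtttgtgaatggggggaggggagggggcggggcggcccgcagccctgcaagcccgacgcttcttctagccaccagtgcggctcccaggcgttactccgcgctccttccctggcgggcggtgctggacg
Lef1, chr3:131156044-131156343, plus strand: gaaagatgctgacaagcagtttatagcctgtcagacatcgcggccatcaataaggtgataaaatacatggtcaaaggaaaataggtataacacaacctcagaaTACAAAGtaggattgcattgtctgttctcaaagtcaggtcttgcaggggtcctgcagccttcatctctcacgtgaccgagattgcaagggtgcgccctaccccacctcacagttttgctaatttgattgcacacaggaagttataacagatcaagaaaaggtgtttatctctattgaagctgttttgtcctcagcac

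Of the 55 members, 38 reached 1 CPM in at least 3 libraries and 9 did so in all 12: Fzd1, Fzd2, Fzd5, Fzd7, Lrp5, Lrp6, Lgr4, Znrf3 and Wnt5a. Per kilobase of exon, the highest mean in metastasis lines was that of the antagonist Dkk2, at 28.6 ± 16.3 CPM per kb with PLX4720 and 144 ± 84.3 CPM per kb with DMSO (mean ± SD, n = 3 lines each). With PLX4720 it did not stand apart from Fzd2 (22.3 ± 4.86), Fzd1 (21.3 ± 26.2) or Dkk3 (18.4 ± 20.4) beyond their SDs. In primary lines the highest mean was that of the ligand Wnt10a, at 31.4 ± 14.3 CPM per kb with PLX4720 and 16.9 ± 11.6 CPM per kb with DMSO, and this too did not stand apart beyond the SDs, with PLX4720 from Axin2 (22.0 ± 17.9), Lgr4 (20.4 ± 3.76) or Rnf43 (19.6 ± 17.3), or with DMSO from Wnt7b (15.5 ± 11.9), Lrp5 (15.3 ± 3.05) or Axin2 (14.2 ± 11.9). Too few fragments were counted for 14 members to be tested: Dkk1, Dkk4, Fzd10, Rspo1, Rspo4, Sfrp5, Wif1, Wnt1, Wnt3, Wnt3a, Wnt8a, Wnt8b, Wnt9b and Wnt16. Wnt3a and Wnt8a had no fragment in any library, and 11 others had 1 to 26 fragments over all 12. Wnt16 was the exception, with 217 fragments in M1 with PLX4720, or 5.94 CPM, and 0 to 13 in each other library.

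**Figure D1:**
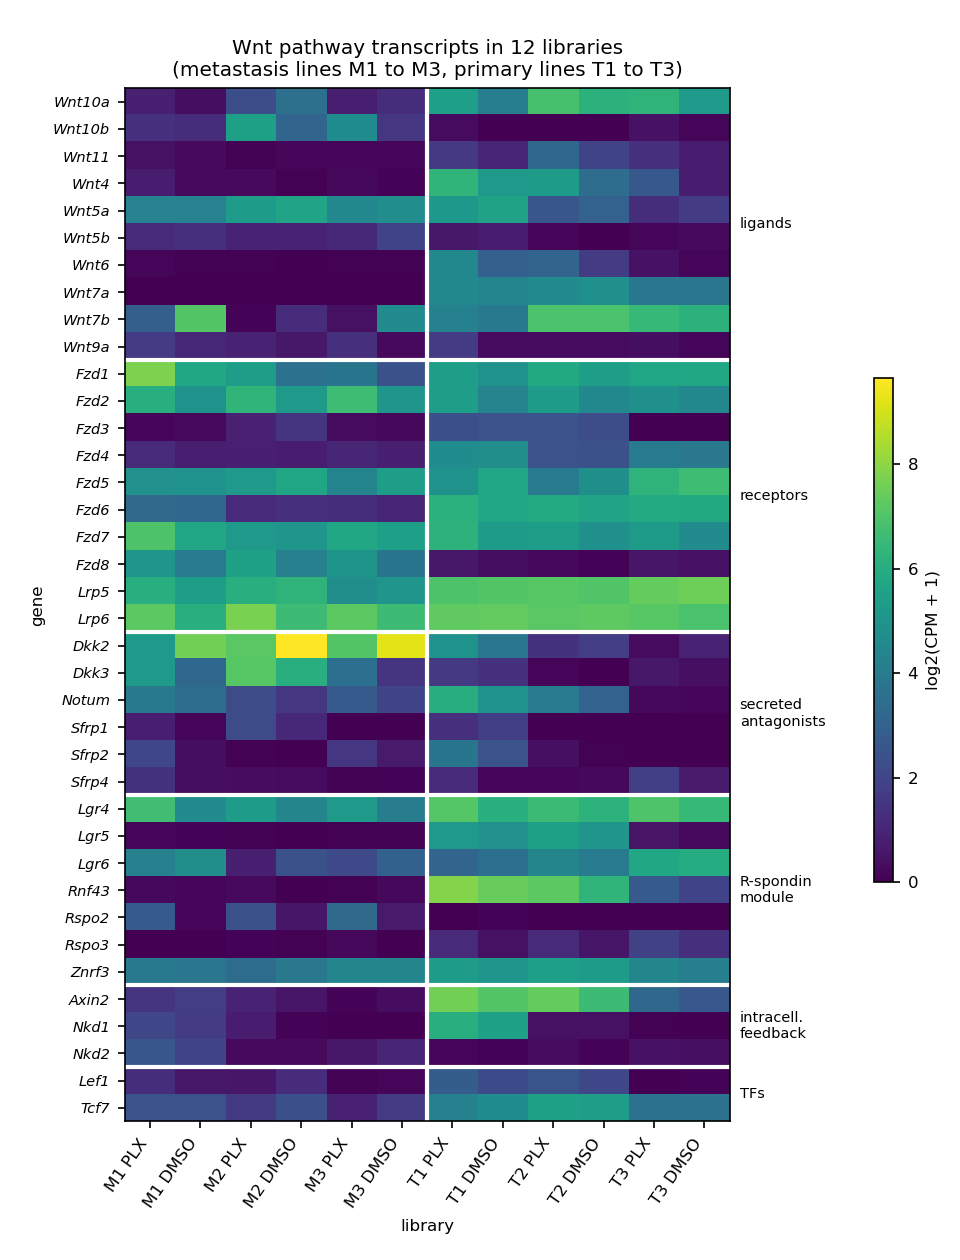
Heat map of the 38 members at 1 CPM or more in at least 3 libraries, as log2(CPM + 1), with genes in rows by role and the 12 libraries in columns, PLX4720 left of DMSO for each line. Wnt7a, Rnf43 and Lgr5 are dark in the 6 metastasis libraries at 0 to 0.182 CPM, while Fzd8, Dkk2 and Rspo2 are brighter there than in primary lines of the same treatment.

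Over all 6 lines, 48 h of PLX4720 moved 7 of 12 ligands tested, 6 of 11 receptors and 5 of 6 secreted antagonists past the threshold. In the R-spondin module 2 of 7 passed (28.6%), near the 27.2% of all genes. None of the 3 intracellular feedback genes or the 2 transcription factors passed, which are too few to read as a difference between roles. Most rose: 15 members were higher, among them Wnt4, Wnt6, Fzd1, Fzd2, Lgr4 and Notum, and 5 were lower, namely Wnt7b, Wnt5a, Fzd5, Dkk2 and Lgr6. The 20 are 48.8% of the 41 members tested, and 27.2% of all 16555 genes passed the same threshold (edgeR adjusted p below 0.05). The median log2 change was 0.60 over the members tested and 0.03 over all genes. In metastasis lines alone 15 of 41 members passed, 12 higher and 3 lower, where 20.4% of all genes did, with medians of 0.60 and 0.02. In primary lines alone 8 of 41 passed, 6 higher and 2 lower, where 8.23% of all genes did, with medians of 0.49 and 0.03. Fzd2 and Notum were the 2 members past the threshold at both sites, which is 2 of the 15 in metastasis lines and 2 of the 8 in primary lines. The share of all genes past it at both sites was not counted. Calls over all 6 lines and in metastasis lines mostly held without any 1 line (11 of 20 and 11 of 15), and none of the 8 in primary lines did, each being lost without at least 1 line: 1 member passed in primary lines without T1, 1 without T2, 5 without T3 and 16 without M1. The response itself differed between sites for Wnt7b, Dkk2, Fzd1 and Lrp6, which is 4 of 41 members where 2.94% of all genes passed, with median log2 differences of -0.02 over members and 0.03 over all genes. That count was 2 without T1, T2 or M2. In the Ensembl annotation named in the submitters' processing notes (release 84, GRCm38), these genes lie at chr15:85535439-85581821, minus strand for Wnt7b, chr3:132085292-132180304, plus strand for Dkk2, chr5:4753839-4758035, minus strand for Fzd1 and chr6:134446476-134566965, minus strand for Lrp6.

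**Figure D2:**
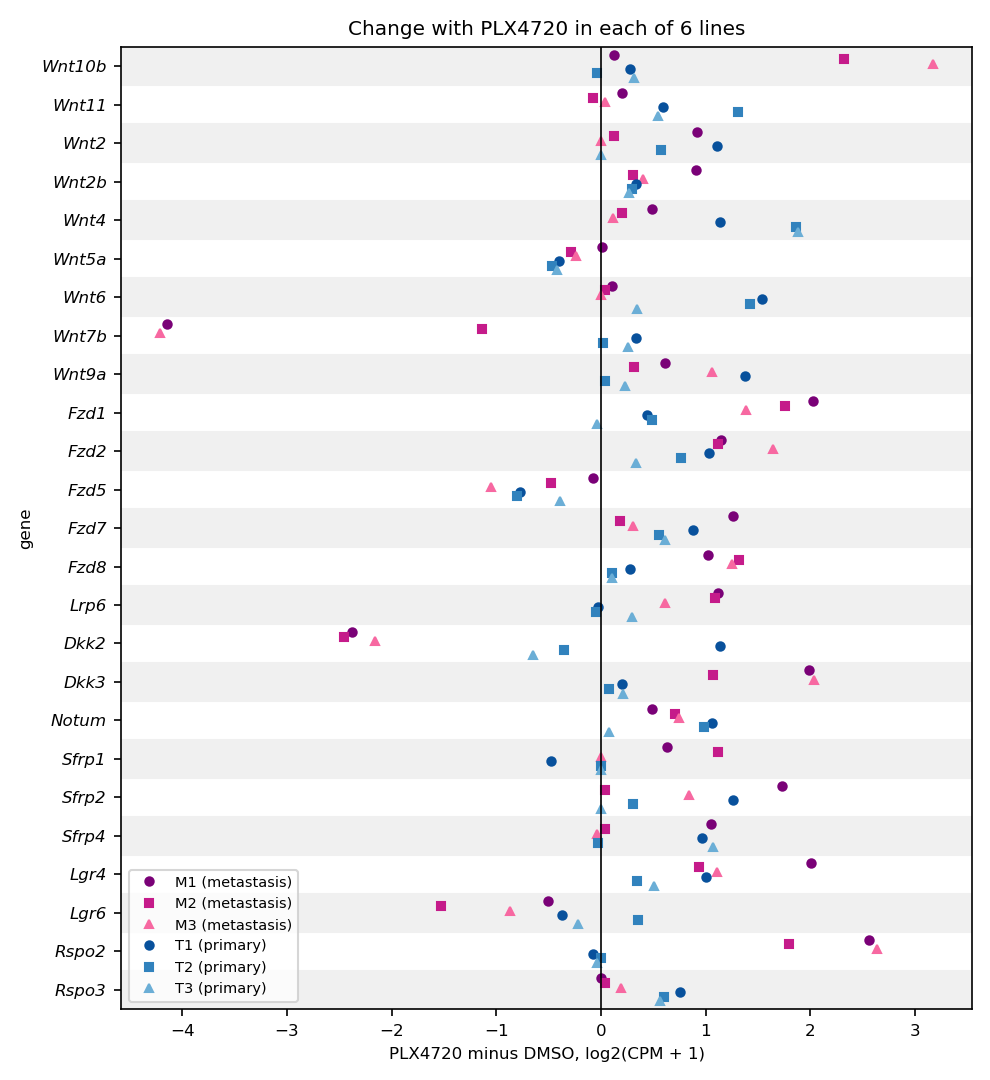
Change with PLX4720 in each line, as the difference of log2(CPM + 1) between the PLX4720 and the DMSO library, for the 25 members past the threshold over all lines or at a site, by role from ligands at the top to the R-spondin module at the bottom. Points right of 0 are higher with PLX4720, as for Fzd2 and Lgr4 in all 6 lines, while Wnt7b and Dkk2 lie left of 0 in M1, M2 and M3 and right of it in T1.

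Between sites the members parted in both directions. Metastasis lines held less of the ligands Wnt7a, Wnt4 and Wnt11, the receptors Fzd4 and Fzd6, and the beta-catenin-raised genes Axin2, Rnf43 and Tcf7, and more of Fzd8 and Wnt10b, under either treatment. With DMSO, 14 of 33 members tested passed, 3 higher and 11 lower in metastasis lines, where 12.1% of 14992 genes did, with median log2 differences of -1.34 and 0.00. With PLX4720, 17 of 41 passed, 5 higher and 12 lower, where 13.5% of 15276 genes did, with medians of -1.18 and 0.03. Both lists share 11 members, which are 11 of the 14 and 11 of the 17, and both rest on the same 6 lines. The share of all genes called under both treatments was not counted, so this overlap is not read as particular to the members. Of these calls, 3 of the 14 and 4 of the 17 held whichever line was left out. The count with DMSO was 8 without T1, 7 without T2 or M1, 5 without M2 and 4 without M3, and with PLX4720 it was 10 without T1, 7 without T2 or M3, 11 without T3 and 4 without M2. With M2 and M3 summed as if they were 1 line, an alternative chosen after the data were seen, 5 of the 14 and 6 of the 17 kept their call. The hepatocyte and the fibroblast and stellate marker sums given above do not overlap between sites either, and their part in these differences was not tested.

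Among the ligands, Wnt7b, which acts in lung and kidney duct development, had the largest drop of the members past the threshold in metastasis lines. It stood at 6.54, 0.0606 and 0.349 CPM with PLX4720 in M1, M2 and M3, against 133, 1.34 and 24.0 CPM with DMSO. The primary values were 17.9, 120.3 and 86.4 CPM with PLX4720 in T1, T2 and T3, against 14.0, 119 and 72.3 CPM with DMSO. Each metastasis line was lower with PLX4720 than with DMSO, while each primary line was slightly higher, although the ranges of the metastasis groups overlap, M2 being low throughout. In metastasis lines Wnt7b fell (log2 change -4.80 ± 0.28, edgeR adjusted p = 2.89e-05) and in primary lines it did not pass (log2 change 0.21 ± 0.19, edgeR adjusted p = 0.536). The difference between the responses passed as well (log2 difference -5.00 ± 0.34, edgeR adjusted p = 0.00134). The metastasis change was -5.89 without M1 (edgeR adjusted p = 4.63e-06) and the difference between responses -6.10 without M1 (edgeR adjusted p = 8.86e-05). Over all 6 lines the change was -2.29 ± 0.17 in log2 (edgeR adjusted p = 0.000107), an average that T1, T2 and T3 did not share in direction.

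Wnt4 and Wnt6, ligands of kidney and epithelial development, were far more abundant in primary lines, where their rise passed. In metastasis lines the log2 changes did not pass, at 1.84 ± 0.68 for Wnt4 (edgeR adjusted p = 0.0906) and 1.36 ± 0.75 for Wnt6 (edgeR adjusted p = 0.332). The responses of the sites did not differ past the threshold for either gene. Wnt4 had 0.657, 0.182 and 0.145 CPM with PLX4720 in M1, M2 and M3, against 0.179, 0.0297 and 0.058 CPM with DMSO. Across primary lines it had 79.6, 38.8 and 5.37 CPM with PLX4720 in T1, T2 and T3, against 35.6, 9.92 and 0.73 CPM with DMSO. Every line was higher with PLX4720 than with DMSO, but the lines differ among themselves by more than the treatments do and the ranges overlap in primary lines and in metastasis lines. Wnt4 rose in primary lines (log2 change 1.86 ± 0.25, edgeR adjusted p = 0.00711), a call lost without T2 (log2 change 1.83, edgeR adjusted p = 0.0515), and over all 6 lines (log2 change 1.85 ± 0.36, edgeR adjusted p = 0.00651), lost without M1 (log2 change 1.82, edgeR adjusted p = 0.0581). Wnt6 had 0.0291 to 0.109 CPM with PLX4720 and 0 to 0.0298 CPM with DMSO in metastasis lines. Primary lines held 21.5, 7.76 and 0.401 CPM with PLX4720 in T1, T2 and T3, against 6.76, 2.26 and 0.101 CPM with DMSO. All 3 primary lines were higher with PLX4720, as was M1, while M2 had 1 fragment with PLX4720 and 0 with DMSO and M3 had 1 in each. It rose in primary lines (log2 change 1.74 ± 0.20, edgeR adjusted p = 0.00427), lost without T1 (log2 change 1.82, edgeR adjusted p = 0.0692), and over all lines (log2 change 1.55 ± 0.40, edgeR adjusted p = 0.0212), lost without M1, M2 or T1 (log2 change 1.31 to 1.58, edgeR adjusted p = 0.0523 to 0.243).

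Both were lower in metastasis than in primary lines. For Wnt4 the difference was -6.94 ± 1.23 in log2 (edgeR adjusted p = 0.0149) with PLX4720 and -7.36 ± 1.60 in log2 (edgeR adjusted p = 0.031) with DMSO, and the sites did not overlap under either treatment. With PLX4720 it missed the threshold without M2 or M3 (log2 difference -6.65 and -6.59, edgeR adjusted p = 0.069 and 0.0587), and with DMSO without M1, M2, M3, T1 or T2 (log2 difference -8.33 to -5.83, edgeR adjusted p = 0.0572 to 0.115). The difference with PLX4720 was -7.94 without M1 (edgeR adjusted p = 0.0355) and -6.06 without T1 (edgeR adjusted p = 0.0335). Wnt6 differed with PLX4720 (log2 difference -7.34 ± 1.59, edgeR adjusted p = 0.0287) but lost without M1, M2, M3, T1 or T2 (log2 difference -8.22 to -6.08, edgeR adjusted p = 0.0562 to 0.114). With DMSO it was left out of the test for too few fragments, 2 in the 3 metastasis libraries and 333 in the 3 primary ones. Scaled for depth that is a ratio of primary over metastasis of 149 (95% counting interval 40.9 to 1234). Fitted log2 values of a group this close to 0 depend on the small prior count added by the fit.

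Wnt11, known for cell movements in the gastrula, stood at 0.0303 to 0.356 CPM with PLX4720 and 0.0871 to 0.179 CPM with DMSO in metastasis lines. Levels in primary lines were 2.01, 8.71 and 1.44 CPM with PLX4720 in T1, T2 and T3, against 1.00, 2.92 and 0.68 CPM with DMSO. All 3 primary lines were higher with PLX4720, with overlapping ranges. Its rise in primary lines passed (log2 change 1.26 ± 0.25, edgeR adjusted p = 0.0223), but not without T1, T2 or T3 (log2 change 1.06 to 1.38, edgeR adjusted p = 0.0759 to 0.168). Between sites it was lower in metastasis lines with PLX4720 (log2 difference -4.54 ± 1.10, edgeR adjusted p = 0.0419) and with DMSO (log2 difference -3.64 ± 0.73, edgeR adjusted p = 0.0236), without overlap. The first of these was lost without M1, M2, M3, T1, T2 or T3 (log2 difference -5.71 to -3.34, edgeR adjusted p = 0.0514 to 0.133), and the second without M1, M2 or M3 (log2 difference -4.06 to -3.45, edgeR adjusted p = 0.0568 to 0.105). The difference with DMSO was -2.76 without T2 (edgeR adjusted p = 0.0451). The Wnt11 gene shares 8.80% of its exonic bases with a gene on the other strand, Gm8398, which had 0 fragments in all 12 libraries. The tables record no strand setting, so reads of such overlaps cannot be told apart.

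Wnt5a, the best studied ligand of the branches that do not use beta-catenin, was lower in 5 of 6 lines. It had 18.7, 39.8 and 21.5 CPM with PLX4720 in M1, M2 and M3, against 18.5, 48.8 and 25.7 CPM with DMSO. Primary lines held 34.5, 4.95 and 1.39 CPM with PLX4720 in T1, T2 and T3, against 45.9, 7.21 and 2.19 CPM with DMSO. T1 exceeded T2 and T3 under both treatments, so the ranges overlap widely and the change shows within lines. Wnt5a fell in primary lines (log2 change -0.51 ± 0.12, edgeR adjusted p = 0.0355), lost without M2, T1, T2 or T3 (log2 change -0.58 to -0.45, edgeR adjusted p = 0.0551 to 0.19), and over all lines (log2 change -0.35 ± 0.08, edgeR adjusted p = 0.0136), lost without M2 (log2 change -0.32, edgeR adjusted p = 0.0524).

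Wnt2, Wnt2b and Wnt9a were low but rose over all 6 lines. Wnt2b had 1.09, 0.788 and 0.669 CPM with PLX4720 in M1, M2 and M3, against 0.119, 0.446 and 0.261 CPM with DMSO, and 0.294 to 0.470 CPM with PLX4720 against 0.0755 to 0.167 CPM with DMSO in primary lines. The treatments did not overlap at either site. Wnt2b rose over all lines (log2 change 1.69 ± 0.34, edgeR adjusted p = 0.00761) and in metastasis lines (log2 change 1.63 ± 0.42, edgeR adjusted p = 0.025), the second lost without M1 or M3 (log2 change 1.05 and 1.75, edgeR adjusted p = 0.103 and 0.0607). Wnt9a had 2.30, 0.909 and 1.45 CPM with PLX4720 in M1, M2 and M3, against 1.16, 0.535 and 0.174 CPM with DMSO. Primary lines held 2.17, 0.245 and 0.294 CPM with PLX4720 in T1, T2 and T3, against 0.223, 0.21 and 0.101 CPM with DMSO. It was higher with PLX4720 in 6 of 6 lines, without overlap in primary lines and with overlap in metastasis lines, and it rose over all lines (log2 change 1.71 ± 0.41, edgeR adjusted p = 0.016), lost without T1 (log2 change 1.10, edgeR adjusted p = 0.128). Wnt2, which endothelial cells of the liver are known to make, reached 2.02 CPM at most. Its rise (log2 change 1.84 ± 0.50, edgeR adjusted p = 0.03) showed in 4 of 6 lines and was lost without M1, M2, T1 or T2 (log2 change 1.44 to 2.81, edgeR adjusted p = 0.0586 to 0.206). The endothelial marker sum, nearly all of it Tek, was highest in T1, at 36.9 CPM with PLX4720 and 74.8 CPM with DMSO. Wnt2 stood there at 1.46 CPM with PLX4720 and 0.139 CPM with DMSO. Its highest value was that of M1 with PLX4720, and in metastasis lines the endothelial sum was at most 1.75 CPM. The part of endothelial cells was not tested.

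Wnt10b, known for holding back fat cell formation, rose in metastasis lines and was higher there than in primary lines. It had 1.61, 44.0 and 24.8 CPM with PLX4720 in M1, M2 and M3, against 1.40, 7.97 and 1.86 CPM with DMSO. In primary lines it had 0 to 0.401 CPM with PLX4720 and 0 to 0.126 CPM with DMSO. M2 and M3 were well above their DMSO libraries and M1 barely so, and the 2 ranges overlap. The rise (log2 change 2.32 ± 0.55, edgeR adjusted p = 0.0188) was lost without M2 or M3 (log2 change 2.17 and 1.56, edgeR adjusted p = 0.138 and 0.0864) and was 3.03 without M1 (edgeR adjusted p = 0.000379). The difference between sites was 6.86 ± 1.64 in log2 (edgeR adjusted p = 0.0396) with PLX4720, lost without M2, M3, T1, T2 or T3 (log2 difference 6.04 to 7.79, edgeR adjusted p = 0.0781 to 0.117), and 6.09 ± 1.26 in log2 (edgeR adjusted p = 0.0264) with DMSO, lost without M2, M3, T1 or T2 (log2 difference 4.90 to 6.43, edgeR adjusted p = 0.0535 to 0.1). Without T3, with 1 fragment left in primary lines with DMSO, it had a ratio of metastasis over primary lines of 276 (95% counting interval 49.2 to 10922), with edgeR adjusted p = 0.0381.

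Wnt10a, a ligand of tooth and skin appendages, went the other way between sites. It had 0.821, 4.03 and 0.756 CPM with PLX4720 in M1, M2 and M3, against 0.268, 10.9 and 1.39 CPM with DMSO. Levels in primary lines were 42.9, 113 and 76.5 CPM with PLX4720 in T1, T2 and T3, against 16.6, 72.8 and 35.8 CPM with DMSO. All 3 primary lines were higher with PLX4720, with overlapping ranges, and this did not pass (log2 change 1.03 ± 0.29, edgeR adjusted p = 0.0608). With PLX4720 metastasis lines were lower (log2 difference -5.34 ± 0.86, edgeR adjusted p = 0.0113), and the value was -6.59 without M2 (edgeR adjusted p = 0.00915). With DMSO the difference missed the threshold (log2 difference -3.30 ± 1.29, edgeR adjusted p = 0.168), although the sites did not overlap.

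Wnt7a, a ligand of limb and female tract patterning, had no fragment in any metastasis library. In primary lines it had 21.5, 23.9 and 12.7 CPM with PLX4720 in T1, T2 and T3, against 19.2, 27.4 and 12.7 CPM with DMSO. Against a floor of 3 fragments over the metastasis group it was at least 671-fold lower in metastasis lines with PLX4720, with 2177 fragments in the 3 primary libraries, and at least 667-fold lower with DMSO, with 2237. The fitted tests passed under both treatments (edgeR adjusted p = 0.00285 with PLX4720 and 0.00314 with DMSO) and without any 1 line. Wnt7a did not change with PLX4720 past the threshold in primary lines (log2 change -0.01 ± 0.14, edgeR adjusted p = 0.978). Wnt5b stood at 0.970 to 1.26 CPM with PLX4720 and 0.922 to 2.82 CPM with DMSO in metastasis lines, above all primary libraries of the same treatment, but passed in no comparison.

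**Figure D3:**
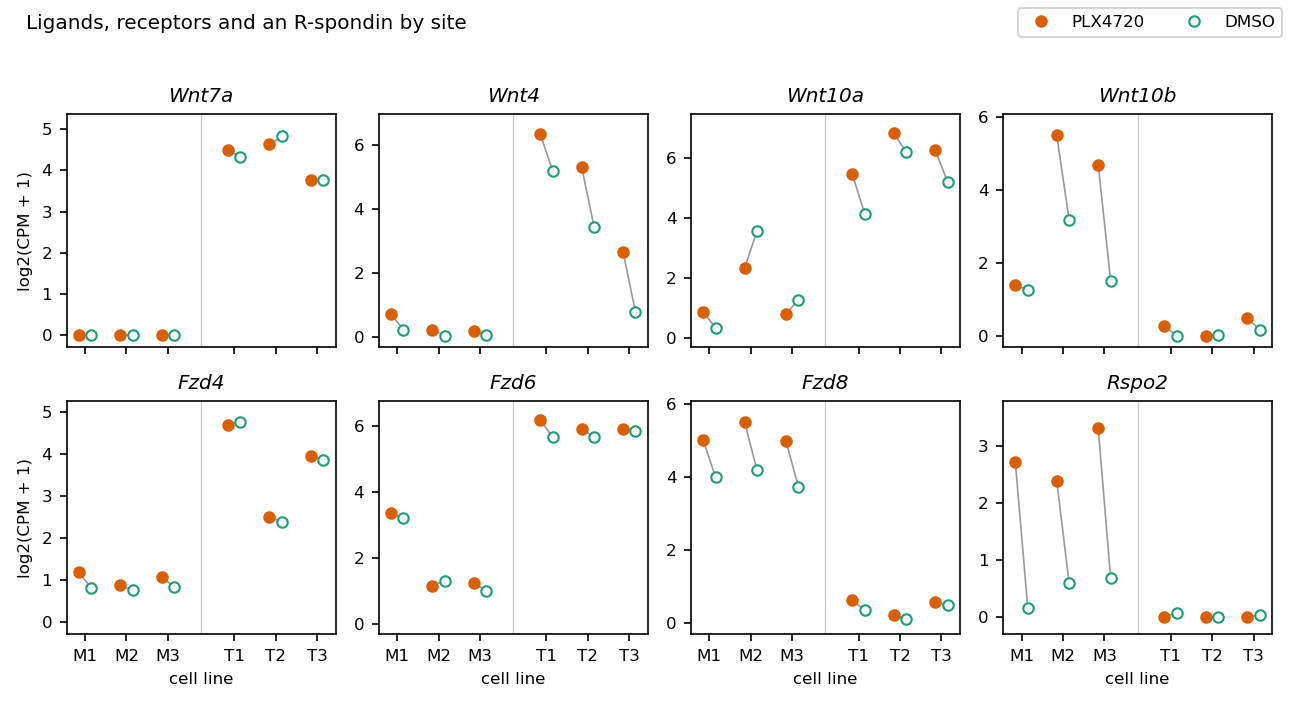
CPM in each line, as log2(CPM + 1), with metastasis lines left of primary lines, PLX4720 filled and DMSO open, for 8 members that passed between sites under at least 1 treatment. Wnt7a is at 0 in all 6 metastasis libraries, Wnt4, Wnt10a, Fzd4 and Fzd6 are lower there, and Wnt10b, Fzd8 and Rspo2 are higher.

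The Frizzled receptors Fzd1, Fzd2, Fzd7 and Fzd8 rose with PLX4720 over all lines and Fzd5 fell, 5 of the 9 Frizzled genes tested, where 27.2% of all genes passed. Fzd1 had 215, 40.2 and 12.6 CPM with PLX4720 in M1, M2 and M3, against 52.3, 11.2 and 4.24 CPM with DMSO. Primary lines held 40.5, 57.8 and 51.9 CPM with PLX4720 in T1, T2 and T3, against 29.7, 40.8 and 53.5 CPM with DMSO. Every metastasis line was higher with PLX4720, by a similar factor at very different levels, while T3 was slightly lower. Fzd1 rose in metastasis lines (log2 change 1.84 ± 0.14, edgeR adjusted p = 8.77e-05) and over all lines (log2 change 1.07 ± 0.09, edgeR adjusted p = 0.000212), and the difference between the sites' responses passed (log2 difference 1.54 ± 0.19, edgeR adjusted p = 0.00692), all of them without any 1 line too. In primary lines the change was 0.30 ± 0.13 in log2 (edgeR adjusted p = 0.18).

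Fzd2 is the receptor whose rise passed the threshold at both sites, which Fzd7, described below, narrowly missed at each. It had 65.3, 79.2 and 101 CPM with PLX4720 in M1, M2 and M3, against 29.0, 35.9 and 31.6 CPM with DMSO. The primary values were 39.9, 37.9 and 27.8 CPM with PLX4720 in T1, T2 and T3, against 19.0, 21.9 and 21.9 CPM with DMSO. The treatments did not overlap at either site, and 6 of 6 lines were higher. It rose in metastasis lines (log2 change 1.33 ± 0.15, edgeR adjusted p = 0.000626), in primary lines (log2 change 0.74 ± 0.16, edgeR adjusted p = 0.0266) and over all (log2 change 1.03 ± 0.11, edgeR adjusted p = 0.000456). The call in primary lines was lost without T1 or T2 (log2 change 0.58 and 0.73, edgeR adjusted p = 0.205 and 0.125). Fzd2 was also higher in metastasis than in primary lines with PLX4720 (log2 difference 1.24 ± 0.25, edgeR adjusted p = 0.0239), lost without M2, M3, T1, T2 or T3 (log2 difference 1.06 to 1.31, edgeR adjusted p = 0.0563 to 0.0751), and with DMSO it did not pass (log2 difference 0.63 ± 0.21, edgeR adjusted p = 0.11).

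Fzd8 was nearly absent from primary lines. It had 31.4, 44.6 and 30.6 CPM with PLX4720 in M1, M2 and M3, against 15.0, 17.2 and 12.3 CPM with DMSO, without overlap. In primary lines it had 0.163 to 0.548 CPM with PLX4720 and 0.0789 to 0.403 CPM with DMSO. It rose in metastasis lines (log2 change 1.25 ± 0.13, edgeR adjusted p = 0.000363) and over all lines (log2 change 0.97 ± 0.15, edgeR adjusted p = 0.00251). Metastasis lines were higher with PLX4720 (log2 difference 6.46 ± 0.57, edgeR adjusted p = 0.00185) and with DMSO (log2 difference 5.86 ± 0.67, edgeR adjusted p = 0.00432), and each of these 4 calls held without any 1 line. Fzd7, whose start-site window is printed above, had 123, 35.7 and 53.1 CPM with PLX4720 in M1, M2 and M3, against 50.7, 31.4 and 42.6 CPM with DMSO. The primary values were 74.1, 41.8 and 37.7 CPM with PLX4720 in T1, T2 and T3, against 39.8, 28.1 and 24.4 CPM with DMSO. It was higher in 6 of 6 lines and overlapped at both sites. Over all lines it rose (log2 change 0.65 ± 0.13, edgeR adjusted p = 0.00895), and at each site alone it missed, with 0.60 ± 0.19 in log2 (edgeR adjusted p = 0.058) in metastasis and 0.70 ± 0.19 in log2 (edgeR adjusted p = 0.0555) in primary lines.

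Fzd5, a receptor of the intestinal epithelium among other tissues, was lower with PLX4720 in 6 of 6 lines. It had 28.3, 36.3 and 19.7 CPM with PLX4720 in M1, M2 and M3, against 29.9, 50.9 and 42.0 CPM with DMSO. Levels in primary lines were 29.5, 14.9 and 76.0 CPM with PLX4720 in T1, T2 and T3, against 51.3, 26.8 and 100.2 CPM with DMSO. The ranges overlap at both sites. Over all lines it fell (log2 change -0.61 ± 0.12, edgeR adjusted p = 0.00831) whichever line was left out, and in primary lines (log2 change -0.68 ± 0.18, edgeR adjusted p = 0.0499) it was lost without M2, T1, T2 or T3 (log2 change -0.80 to -0.58, edgeR adjusted p = 0.0676 to 0.284). Fzd5 shares 17.8% of its exonic bases with Gm38058 on the other strand, which had at most 54 fragments in any library.

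Fzd4, also the receptor of Norrin in retinal vessels, and Fzd6, known for hair patterning, were lower in metastasis lines and were not changed past the threshold by PLX4720 at either site. Fzd4 had 1.26, 0.818 and 1.08 CPM with PLX4720 in M1, M2 and M3, against 0.745, 0.684 and 0.784 CPM with DMSO. Levels in primary lines were 25.1, 4.60 and 14.6 CPM with PLX4720 in T1, T2 and T3, against 26.1, 4.21 and 13.4 CPM with DMSO. The metastasis libraries all lie below the primary ones. The difference was -3.79 ± 0.69 in log2 (edgeR adjusted p = 0.0164) with PLX4720 and -4.28 ± 0.73 in log2 (edgeR adjusted p = 0.0143) with DMSO. With PLX4720 it was lost without M1, M2 or M3 (log2 difference -3.95 to -3.64, edgeR adjusted p = 0.0505 to 0.0736) and was -3.20 without T1 (edgeR adjusted p = 0.0395). With DMSO it was lost without M1, M2 or M3 (log2 difference -4.32 to -4.23, edgeR adjusted p = 0.0508 to 0.0656) and was -3.55 without T1 (edgeR adjusted p = 0.0298). Fzd6 had 9.22, 1.24 and 1.40 CPM with PLX4720 in M1, M2 and M3, against 8.26, 1.49 and 0.987 CPM with DMSO. In primary lines it had 71.6, 59.3 and 59.0 CPM with PLX4720 in T1, T2 and T3, against 49.5, 49.3 and 56.5 CPM with DMSO. It was lower in metastasis lines with PLX4720 (log2 difference -3.99 ± 0.85, edgeR adjusted p = 0.0275), lost without M2, M3, T1, T2 or T3 (log2 difference -4.05 to -3.56, edgeR adjusted p = 0.0588 to 0.0736), and the value was -5.58 without M1 (edgeR adjusted p = 0.00224). With DMSO it was -3.83 ± 0.86 in log2 (edgeR adjusted p = 0.0342), lost without M2, M3, T1, T2 or T3 (log2 difference -3.87 to -3.38, edgeR adjusted p = 0.0649 to 0.104), and the value was -5.37 without M1 (edgeR adjusted p = 0.00393). Fzd3 reached 4.57 CPM and Fzd9 1.17 CPM at most, and neither passed in any comparison.

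Of the co-receptors, Lrp6 passed with PLX4720 and Lrp5 passed between sites. Lrp6 had 146, 208 and 148 CPM with PLX4720 in M1, M2 and M3, against 66.8, 97.2 and 96.4 CPM with DMSO, without overlap. Primary lines held 157, 146 and 142 CPM with PLX4720 in T1, T2 and T3, against 160.4, 151 and 115 CPM with DMSO. All 3 metastasis lines were higher with PLX4720, while T3 was higher and T1 and T2 were slightly lower. In primary lines the change did not pass (log2 change 0.07 ± 0.12, edgeR adjusted p = 0.741). Lrp6 rose in metastasis lines (log2 change 0.95 ± 0.12, edgeR adjusted p = 0.000979) and over all lines (log2 change 0.51 ± 0.08, edgeR adjusted p = 0.00348), and the responses of the sites differed (log2 difference 0.88 ± 0.17, edgeR adjusted p = 0.0307), a difference lost without M2, T1 or T2 (log2 difference 0.76 to 0.78, edgeR adjusted p = 0.101 to 0.149). Lrp5 had 67.3, 65.3 and 26.4 CPM with PLX4720 in M1, M2 and M3, against 40.0, 76.4 and 31.4 CPM with DMSO. Primary lines held 122, 141 and 163 CPM with PLX4720 in T1, T2 and T3, against 134, 129 and 183 CPM with DMSO. It did not pass with PLX4720 at either site. With DMSO it was lower in metastasis lines (log2 difference -1.58 ± 0.37, edgeR adjusted p = 0.0391), lost without M1, M3, T1, T2 or T3 (log2 difference -1.65 to -1.33, edgeR adjusted p = 0.0828 to 0.107), and with PLX4720 the difference missed (log2 difference -1.40 ± 0.37, edgeR adjusted p = 0.0547), without overlap of the sites in either case.

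The secreted antagonist Dkk2, which binds the co-receptors, showed the largest level of any member and dropped in metastasis lines. It had 36.3, 146 and 135 CPM with PLX4720 in M1, M2 and M3, against 193, 805 and 607 CPM with DMSO, without overlap. The primary values were 29.8, 1.66 and 0.214 CPM with PLX4720 in T1, T2 and T3, against 13.0, 2.39 and 0.906 CPM with DMSO. T1 stands apart among primary lines and was higher with PLX4720, while T2 and T3 were lower at low levels. Dkk2 fell in metastasis lines (log2 change -2.35 ± 0.31, edgeR adjusted p = 0.00115), and this held without any 1 line. In primary lines the change was 0.25 ± 0.41 in log2 (edgeR adjusted p = 0.742), and the responses of the sites differed (log2 difference -2.60 ± 0.52, edgeR adjusted p = 0.0353), a difference lost without M2, M3, T1 or T2 (log2 difference -2.94 to -1.44, edgeR adjusted p = 0.0611 to 0.119). Over all lines the change was -1.05 ± 0.25 in log2 (edgeR adjusted p = 0.0158), lost without T2 (log2 change -0.91, edgeR adjusted p = 0.0582), and the value was -1.66 without T1 (edgeR adjusted p = 0.00118). Metastasis lines were higher with DMSO (log2 difference 6.64 ± 1.22, edgeR adjusted p = 0.0182), lost without M2 or T2 (log2 difference 6.22 and 6.31, edgeR adjusted p = 0.0555 and 0.0639), and the value was 8.37 without T1 (edgeR adjusted p = 0.0129). With PLX4720 the difference was 3.36 ± 1.58 in log2 (edgeR adjusted p = 0.231).

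**Figure D4:**
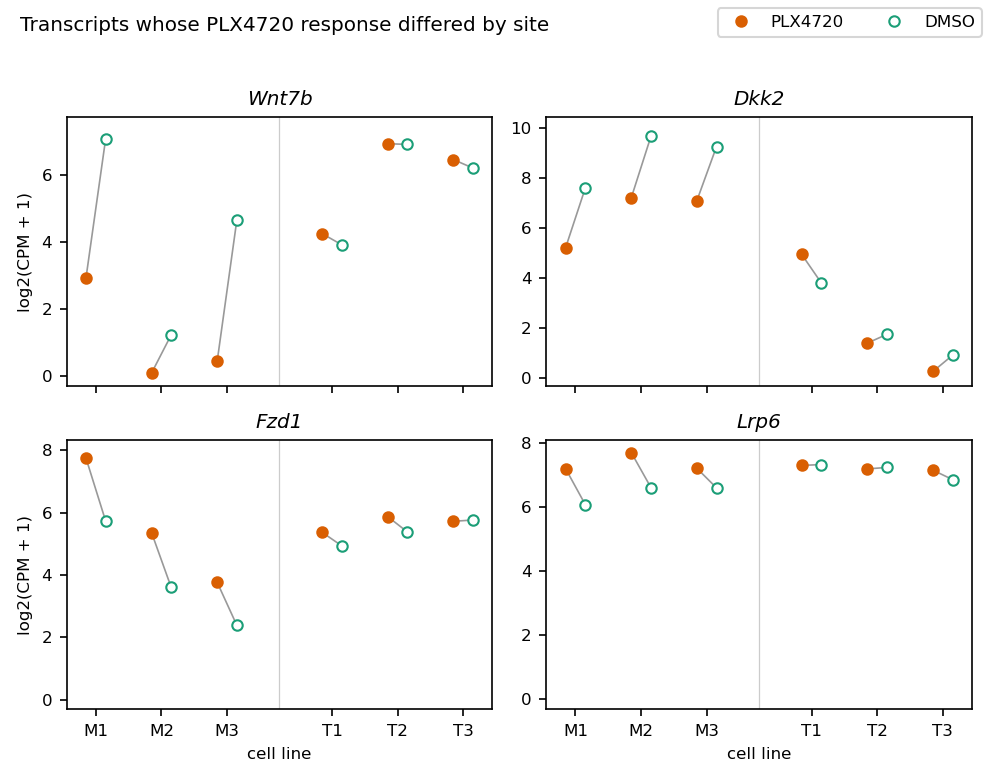
CPM in each line, as log2(CPM + 1), with metastasis lines left of primary lines and PLX4720 filled beside DMSO open, for the 4 members whose response to PLX4720 differed between sites. Wnt7b and Dkk2 drop with PLX4720 in M1, M2 and M3, and Fzd1 and Lrp6 rise there, while the paired points of T1, T2 and T3 lie closer together for Wnt7b, Fzd1 and Lrp6.

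Dkk3, a divergent member of the Dkk family whose action on Wnt signalling is disputed, rose where Dkk2 fell. It had 35.7, 139.5 and 10.4 CPM with PLX4720 in M1, M2 and M3, against 8.23, 65.9 and 1.80 CPM with DMSO. In primary lines it had 0.0817 to 2.01 CPM with PLX4720 and 0.0263 to 1.61 CPM with DMSO. All 6 lines were higher with PLX4720, and the lines differ enough for the ranges to overlap. Dkk3 rose in metastasis lines (log2 change 1.83 ± 0.24, edgeR adjusted p = 0.00112) and over all lines (log2 change 1.16 ± 0.24, edgeR adjusted p = 0.00869), the second lost without T1 (log2 change 1.32, edgeR adjusted p = 0.059). Metastasis lines were higher with PLX4720 (log2 difference 6.17 ± 1.46, edgeR adjusted p = 0.0384), lost without M1, M2, T2 or T3 (log2 difference 4.72 to 6.42, edgeR adjusted p = 0.067 to 0.109), and the value was 7.62 without T1 (edgeR adjusted p = 0.0473). With DMSO the difference was 5.28 ± 1.78 in log2 (edgeR adjusted p = 0.116).

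Notum, an enzyme that strips the lipid from Wnt ligands and a known beta-catenin target, is the antagonist whose rise passed the threshold at both sites. It had 14.1, 3.70 and 5.73 CPM with PLX4720 in M1, M2 and M3, against 9.72, 1.87 and 3.02 CPM with DMSO. Levels in primary lines were 64.3, 15.2 and 0.16 CPM with PLX4720 in T1, T2 and T3, against 30.4, 7.23 and 0.101 CPM with DMSO. All 6 lines were higher with PLX4720, and T3 was lowest by far, so the ranges overlap. It rose in metastasis lines (log2 change 0.79 ± 0.14, edgeR adjusted p = 0.005), in primary lines (log2 change 1.06 ± 0.15, edgeR adjusted p = 0.0083) and over all lines (log2 change 0.92 ± 0.10, edgeR adjusted p = 0.000573), and in primary lines this was lost without T1 or T2 (log2 change 1.03 and 1.05, edgeR adjusted p = 0.152 and 0.0738). The Notum gene shares 38.1% of its exonic bases with genes on the other strand, of which the larger, Notumos, had at most 216 fragments in any library. Notumos had 54, 10 and 7 fragments with PLX4720 in M1, M2 and M3, against 27, 9 and 9 with DMSO. In T1, T2 and T3 it had 216, 45 and 0 with PLX4720, against 101, 17 and 0 with DMSO. The part of this overlap in the Notum values was not tested. Between sites Notum did not pass, at -1.75 ± 1.51 in log2 (edgeR adjusted p = 0.523) with PLX4720 and -1.34 ± 1.50 in log2 (edgeR adjusted p = 0.646) with DMSO.

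The Sfrp genes, soluble proteins with a Frizzled-like domain, were low. Sfrp2 had 3.20, 0.0303 and 1.89 CPM with PLX4720 in M1, M2 and M3, against 0.268, 0 and 0.61 CPM with DMSO. The primary values were 12.3, 0.299 and 0 CPM with PLX4720 in T1, T2 and T3, against 4.56, 0.0526 and 0 CPM with DMSO. It was higher in 5 of 6 lines, at 0 in T3 under both treatments, and the ranges overlap. It rose over all lines (log2 change 2.03 ± 0.32, edgeR adjusted p = 0.00374) and in metastasis lines (log2 change 2.51 ± 0.45, edgeR adjusted p = 0.00716), where the change was 1.66 without M1 (edgeR adjusted p = 0.0363) and 3.51 without M3 (edgeR adjusted p = 0.00522). Sfrp2 shares 16.1% of its exonic bases with another gene. Sfrp1 reached 3.70 CPM and was at 0 in 6 of 12 libraries. It rose in metastasis lines (log2 change 1.91 ± 0.38, edgeR adjusted p = 0.0206) on M1 and M2, and was lost without M1 or M2 (log2 change 1.66 and 2.51, edgeR adjusted p = 0.0513 and 0.107). Sfrp4 reached 2.43 CPM, in T3 with PLX4720. It rose over all lines (log2 change 1.71 ± 0.44, edgeR adjusted p = 0.021) in 4 of 6 lines, and was lost without M1, T1 or T3 (log2 change 0.97 to 1.68, edgeR adjusted p = 0.0748 to 0.215).

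In the R-spondin module the receptor Lgr4 was higher with PLX4720 in 6 of 6 lines. It had 101, 39.2 and 36.0 CPM with PLX4720 in M1, M2 and M3, against 24.5, 20.1 and 16.1 CPM with DMSO, without overlap. In primary lines it had 138, 95.4 and 126 CPM with PLX4720 in T1, T2 and T3, against 68.7, 74.9 and 88.5 CPM with DMSO, again without overlap. Lgr4 rose in metastasis lines (log2 change 1.40 ± 0.21, edgeR adjusted p = 0.00214) and over all lines (log2 change 1.01 ± 0.14, edgeR adjusted p = 0.00172), while in primary lines it missed (log2 change 0.62 ± 0.20, edgeR adjusted p = 0.0867). Metastasis lines were lower with DMSO (log2 difference -1.92 ± 0.24, edgeR adjusted p = 0.00563), and with PLX4720 the difference was -1.01 ± 0.42 in log2 (edgeR adjusted p = 0.183). Its called values held without any 1 line.

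Rspo2, an R-spondin, rose in metastasis lines with PLX4720. It had 5.58, 4.21 and 8.98 CPM with PLX4720 in M1, M2 and M3, against 0.119, 0.506 and 0.61 CPM with DMSO, without overlap. In primary lines 0 fragments were counted with PLX4720 and 3 with DMSO. It rose in metastasis lines (log2 change 3.94 ± 0.40, edgeR adjusted p = 0.00102). Against a floor of 3 fragments over the primary group it was at least 235-fold higher in metastasis lines with PLX4720 (edgeR adjusted p = 0.00528), from 652 fragments, and both calls held without any 1 line. With DMSO the ratio of metastasis over primary was 15.7 (95% counting interval 5.00 to 79.0). This rise stood beside those of the stellate and fibroblast markers Col1a1, Col1a2 and Pdgfrb in the same lines. These are 3 of the 5 such markers tested, the other 2 did not pass, and 20.4% of all genes passed there. The summed fibroblast and stellate level was 2190 to 9019 CPM with PLX4720 and 534 to 3118 CPM with DMSO. The part of these markers was not tested.

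Rspo3, which in normal liver maintains the zone around the central vein, was found mainly in primary lines. In metastasis lines 7 fragments were counted with PLX4720 and 1 with DMSO. Primary lines held 1.31, 1.20 and 2.67 CPM with PLX4720 in T1, T2 and T3, against 0.362, 0.447 and 1.49 CPM with DMSO. Its rise in primary lines (log2 change 1.29 ± 0.32, edgeR adjusted p = 0.0496) showed in 3 of 3 lines and was lost without T1, T2 or T3 (log2 change 1.10 to 1.64, edgeR adjusted p = 0.111 to 0.287). Metastasis lines were lower with PLX4720 (log2 difference -4.56 ± 0.94, edgeR adjusted p = 0.0247), lost without M2, T1, T2 or T3 (log2 difference -4.81 to -4.10, edgeR adjusted p = 0.0523 to 0.118). Without M3 they had 2 fragments, a ratio of primary over metastasis lines of 60.0 (95% counting interval 16.4 to 499), with edgeR adjusted p = 0.0454. With DMSO they were lower (edgeR adjusted p = 0.0195), lost without M1, M2 or M3 (edgeR adjusted p = 0.0654 to 0.0726), and without T3 Rspo3 had a ratio of primary over metastasis lines of 41.2 (95% counting interval 6.85 to 1682), with edgeR adjusted p = 0.0337. With 1 fragment in the metastasis libraries the ratio of primary over metastasis was 79.6 with DMSO (95% counting interval 13.9 to 3177).

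Lgr6 was lower with PLX4720 in 5 of 6 lines. It had 17.9, 0.818 and 3.40 CPM with PLX4720 in M1, M2 and M3, against 25.9, 4.25 and 7.05 CPM with DMSO. Levels in primary lines were 7.83, 19.8 and 53.5 CPM with PLX4720 in T1, T2 and T3, against 10.4, 15.3 and 62.4 CPM with DMSO. Only T2 was higher, and the ranges overlap at both sites. Lgr6 fell in metastasis lines (log2 change -1.14 ± 0.29, edgeR adjusted p = 0.0254), lost without M2 or M3 (log2 change -0.78 and -1.19, edgeR adjusted p = 0.0575 and 0.0619), and over all lines (log2 change -0.61 ± 0.20, edgeR adjusted p = 0.0478), lost without M2, M3, T1 or T3 (log2 change -0.62 to -0.42, edgeR adjusted p = 0.0689 to 0.129). In primary lines the change was -0.08 ± 0.26 in log2 (edgeR adjusted p = 0.875).

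The transcripts known to be raised by beta-catenin were followed whether or not they passed. With PLX4720, Notum passed, 1 of the 8 over all lines where 27.2% of all genes did, and Axin2, Rnf43, Lgr5, Nkd1, Znrf3, Lef1 and Tcf7 did not at either site or over all lines. Axin2, a scaffold of the complex that breaks down beta-catenin and a common readout of the pathway, had 1.78, 0.939 and 0.0581 CPM with PLX4720 in M1, M2 and M3, against 2.42, 0.476 and 0.261 CPM with DMSO. Its primary values were 192, 163 and 8.55 CPM with PLX4720 in T1, T2 and T3, against 132, 97.7 and 5.14 CPM with DMSO. Each primary line was higher with PLX4720, and T3 stood far below T1 and T2. The change in primary lines just missed (log2 change 0.67 ± 0.18, edgeR adjusted p = 0.0529), and in metastasis lines it was -0.14 ± 0.32 in log2 (edgeR adjusted p = 0.802). Rnf43, the ligase that removes Frizzled receptors, had 0.0291 to 0.182 CPM with PLX4720 and 0 to 0.145 CPM with DMSO in metastasis lines. Its levels in primary lines were 230.1, 149 and 5.61 CPM with PLX4720 in T1, T2 and T3, against 169.7, 78.3 and 2.84 CPM with DMSO. It too was higher in 3 of 3 primary lines and just missed (log2 change 0.76 ± 0.20, edgeR adjusted p = 0.0521).

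Lgr5, a receptor for R-spondins that marks stem cells of the gut, had 0.0291 to 0.109 CPM with PLX4720 and 0 to 0.0596 CPM with DMSO in metastasis lines. The primary values were 36.6, 43.5 and 0.427 CPM with PLX4720 in T1, T2 and T3, against 28.4, 31.8 and 0.176 CPM with DMSO. T3 held little of it, as it did of Axin2 and Rnf43. The change in primary lines was 0.49 ± 0.17 in log2 (edgeR adjusted p = 0.107). Nkd1, which binds Dishevelled, was highest in T1. It had 3.17, 0.727 and 0 CPM with PLX4720 in M1, M2 and M3, against 2.18, 0.0595 and 0 CPM with DMSO. Primary lines held 65.5, 0.354 and 0.0267 CPM with PLX4720 in T1, T2 and T3, against 45.4, 0.368 and 0 CPM with DMSO. It did not pass in metastasis lines (log2 change 1.07 ± 0.46, edgeR adjusted p = 0.143) or in primary lines (log2 change 0.43 ± 0.40, edgeR adjusted p = 0.539). Znrf3, the partner of Rnf43, had 13.9, 9.70 and 20.7 CPM with PLX4720 in M1, M2 and M3, against 12.9, 13.6 and 20.4 CPM with DMSO. Primary lines held 38.2, 43.2 and 20.6 CPM with PLX4720 in T1, T2 and T3, against 32.5, 38.1 and 16.6 CPM with DMSO. It was higher in each primary line without passing (log2 change 0.24 ± 0.13, edgeR adjusted p = 0.27), and in metastasis lines the change was -0.11 ± 0.13 in log2 (edgeR adjusted p = 0.591).

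Lef1 and Tcf7, the transcription factors that carry beta-catenin to DNA, were at most 6.11 and 45.3 CPM. Lef1 had 1.42, 0.515 and 0.0291 CPM with PLX4720 in M1, M2 and M3, against 0.537, 1.37 and 0.116 CPM with DMSO. Primary lines held 6.11, 4.63 and 0 CPM with PLX4720 in T1, T2 and T3, against 3.48, 3.13 and 0.0755 CPM with DMSO. M1 was higher with PLX4720 and M2 and M3 were lower, T1 and T2 were higher and T3 had no fragment with PLX4720. Its changes were -0.11 ± 0.61 in log2 (edgeR adjusted p = 0.932) in metastasis and 0.58 ± 0.50 in log2 (edgeR adjusted p = 0.504) in primary lines, and 13.7% of its exonic bases are shared with Gm43352 on the other strand, which had at most 12 fragments in any library. Tcf7 had 4.54, 2.09 and 0.843 CPM with PLX4720 in M1, M2 and M3, against 4.59, 4.13 and 2.21 CPM with DMSO. Primary lines held 17.9, 45.3 and 11.5 CPM with PLX4720 in T1, T2 and T3, against 25.0, 41.1 and 11.5 CPM with DMSO. M2, M3 and T1 were lower with PLX4720, T2 was higher and M1 and T3 were nearly level, with changes of -0.70 ± 0.26 in log2 (edgeR adjusted p = 0.0884) in metastasis and -0.11 ± 0.21 in log2 (edgeR adjusted p = 0.783) in primary lines. Nkd2 was highest in M1, at 4.98 CPM with PLX4720, and passed in no comparison.

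**Figure D5:**
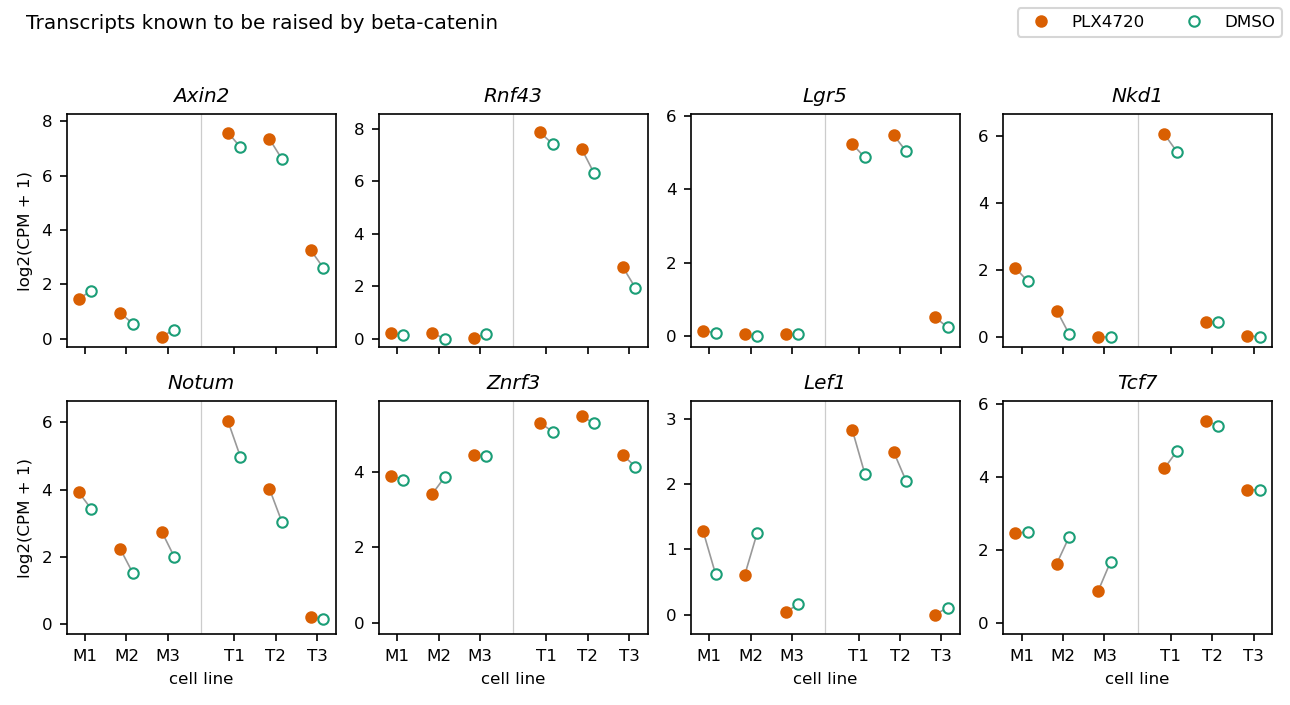
CPM in each line, as log2(CPM + 1), with metastasis lines left of primary lines and PLX4720 filled beside DMSO open, for 8 transcripts known to be raised by beta-catenin. Axin2, Rnf43 and Lgr5 are high in T1 and T2 and low in T3 and in the metastasis lines, and the filled point of Notum lies above the open one in all 6 lines.

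Between sites, 4 of these 8 passed with PLX4720, where 13.5% of all genes did, and 3 of the 7 tested passed with DMSO, where 12.1% did. Axin2 was lower in metastasis lines with PLX4720 (log2 difference -7.01 ± 1.54, edgeR adjusted p = 0.0301), lost without M1, M2, M3, T1 or T2 (log2 difference -7.92 to -6.45, edgeR adjusted p = 0.0666 to 0.117), and with DMSO (log2 difference -6.19 ± 1.46, edgeR adjusted p = 0.0407), lost without M1, M2, M3, T1 or T2 (log2 difference -7.70 to -5.59, edgeR adjusted p = 0.0549 to 0.14). Rnf43 was lower with PLX4720 (log2 difference -9.94 ± 1.64, edgeR adjusted p = 0.012), lost without M2 or M3 (log2 difference -10.29 and -9.49, edgeR adjusted p = 0.0563 and 0.0517), and the value was -9.24 without T1 (edgeR adjusted p = 0.0273). With DMSO it was lower (log2 difference -9.81 ± 1.81, edgeR adjusted p = 0.0185), lost without M1, M2 or M3 (log2 difference -10.34 to -9.24, edgeR adjusted p = 0.0669 to 0.073), and the value was -8.77 without T1 (edgeR adjusted p = 0.0411). Tcf7 was lower with PLX4720 (log2 difference -3.30 ± 0.80, edgeR adjusted p = 0.0408), lost without M2, M3, T1 or T2 (log2 difference -3.52 to -2.57, edgeR adjusted p = 0.0725 to 0.141), and the value was -4.08 without M1 (edgeR adjusted p = 0.0464), and with DMSO (log2 difference -2.81 ± 0.56, edgeR adjusted p = 0.0236), lost without M1, M2, M3, T1 or T2 (log2 difference -3.01 to -2.29, edgeR adjusted p = 0.058 to 0.0856). Lgr5 was lower with PLX4720 (log2 difference -8.77 ± 1.83, edgeR adjusted p = 0.0254), lost without M1, M2, M3, T1 or T2 (log2 difference -9.66 to -8.27, edgeR adjusted p = 0.0554 to 0.104). With DMSO too few fragments were left to test it, 3 in metastasis and 2235 in primary libraries, a ratio of primary over metastasis of 666 (95% counting interval 228 to 3232). All 4 lie lower in every metastasis library than in every primary library of the same treatment. They were named because they passed with PLX4720 in these same libraries, so this adds no further support. The share of all genes without such overlap was not counted. Znrf3 and Lef1 did not pass between sites, at -1.18 ± 0.41 in log2 (edgeR adjusted p = 0.117) and -2.43 ± 1.78 in log2 (edgeR adjusted p = 0.443) with PLX4720.

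The other genes of the pathway were read from 5 lists, by counts and medians beside those of all genes tested. Over all genes the median log2 change with PLX4720 was 0.03 over all lines, 0.02 in metastasis lines and 0.03 in primary lines. Of 26 intracellular genes of the canonical branch, 12 rose and 1 fell with PLX4720 over all lines, where 27.2% of all genes passed (list median 0.24). In metastasis lines 10 rose and 1 fell, where 20.4% of all genes passed (list median 0.27), and in primary lines 3 rose, where 8.23% passed (list median 0.08). Co-repressors of the Tle family moved in both directions, and their response differed between sites for Tle2 and Tle4. Tle2 averaged 22.1 ± 17.7 CPM with PLX4720 and 4.46 ± 4.88 CPM with DMSO in metastasis lines (mean ± SD, n = 3 each), a rise (log2 change 2.44 ± 0.26, edgeR adjusted p = 0.000396), and Tle4 rose there as well (log2 change 1.17 ± 0.15, edgeR adjusted p = 0.00095), while Tle1 fell (log2 change -0.93 ± 0.16, edgeR adjusted p = 0.00481). The difference between sites was 1.88 ± 0.34 in log2 (edgeR adjusted p = 0.0248) for Tle2, lost without M3, T1, T2 or T3 (log2 difference 1.76 to 1.98, edgeR adjusted p = 0.0543 to 0.112), and 1.13 ± 0.20 in log2 (edgeR adjusted p = 0.0226) for Tle4, lost without M2, M3, T1, T2 or T3 (log2 difference 0.94 to 1.18, edgeR adjusted p = 0.0591 to 0.104). Apc2, a homologue of the scaffold Apc (log2 change 0.98 ± 0.12, edgeR adjusted p = 0.000947), and Bcl9l, a beta-catenin cofactor (log2 change 0.95 ± 0.13, edgeR adjusted p = 0.00131), rose over all lines. Between sites 1 of 25 passed with PLX4720, where 13.5% of all genes did, and 2 of 24 with DMSO, where 12.1% did. They were lower in metastasis lines, and the list medians were -0.18 with PLX4720 and -0.25 with DMSO, against 0.03 and 0.00 over all genes.

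Both genes of the list on Wnt secretion rose over all lines, where 27.2% of all genes passed. Both also passed in metastasis lines, where 20.4% of all genes did, but in primary lines Wls alone did, where 8.23% did. Wls, which carries Wnt ligands to the cell surface, averaged 488 ± 323 CPM with PLX4720 and 268 ± 157 CPM with DMSO in metastasis lines, and 183 ± 18.7 CPM with PLX4720 and 131 ± 38.4 CPM with DMSO in primary lines (SD, n = 3 each). It was higher in 6 of 6 lines and rose in metastasis lines (log2 change 0.82 ± 0.11, edgeR adjusted p = 0.00154) and in primary lines (log2 change 0.53 ± 0.11, edgeR adjusted p = 0.0292), the second lost without T1 or T2 (log2 change 0.40 and 0.54, edgeR adjusted p = 0.228 and 0.128). Porcn, the enzyme that attaches the lipid, rose in metastasis lines (log2 change 1.00 ± 0.22, edgeR adjusted p = 0.0133), lost without M1 (log2 change 0.83, edgeR adjusted p = 0.0866). It was lower in metastasis than in primary lines with PLX4720 (log2 difference -2.22 ± 0.56, edgeR adjusted p = 0.046), lost without M2, M3, T1, T2 or T3 (log2 difference -2.36 to -1.92, edgeR adjusted p = 0.0751 to 0.133), and the value was -2.95 without M1 (edgeR adjusted p = 0.0227), and with DMSO (log2 difference -3.22 ± 0.51, edgeR adjusted p = 0.0118), lost without M2 (log2 difference -3.01, edgeR adjusted p = 0.0513).

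Of 13 receptors of other branches and planar polarity genes, 4 rose over all lines and none fell (list median 0.28), where 27.2% of all genes passed. In metastasis lines 3 rose, where 20.4% passed, and in primary lines 1 rose, where 8.23% passed. Between sites, 4 were higher and 3 lower in metastasis lines under either treatment (7 of 13 tested with PLX4720, where 13.5% of all genes passed, and 7 of 12 with DMSO, where 12.1% did). The co-receptors of Wnt5a parted. Ror2 averaged 45.4 ± 1.80 CPM with PLX4720 and 39.4 ± 3.63 CPM with DMSO in metastasis lines, against 0.0348 ± 0.0603 and 0.12 ± 0.186 CPM in primary lines under the same treatments (SD, n = 3 each). It was higher in metastasis lines with PLX4720 (log2 difference 10.22 ± 0.99, edgeR adjusted p = 0.00243) and with DMSO (log2 difference 8.36 ± 1.18, edgeR adjusted p = 0.00846). Without T1 no fragment was left in primary lines with PLX4720, and against a floor of 3 fragments over the group Ror2 was at least 1124-fold higher in metastasis lines (edgeR adjusted p = 0.00217). With DMSO 1 fragment was left there, a ratio of metastasis over primary lines of 3063 (95% counting interval 549 to 121008), with edgeR adjusted p = 0.00414. Ror1 was lower in metastasis lines with DMSO (log2 difference -8.21 ± 1.15, edgeR adjusted p = 0.00833), and the value was -7.38 without T3 (edgeR adjusted p = 0.0212). Without M2 it had 2 fragments in metastasis lines, a ratio of primary over metastasis lines of 747 (95% counting interval 207 to 6172), with edgeR adjusted p = 0.0268. It rose with PLX4720 in primary lines (log2 change 0.68 ± 0.16, edgeR adjusted p = 0.0381), lost without T1, T2 or T3 (log2 change 0.64 to 0.80, edgeR adjusted p = 0.125 to 0.25), and in metastasis lines (log2 change 2.29 ± 0.50, edgeR adjusted p = 0.0134), lost without M2 (log2 change 0.43, edgeR adjusted p = 0.878).

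Of 17 extracellular modulators, 10 could be tested, and 3 rose and 2 fell over all lines, where 27.2% of all genes passed (list median 0.49, against 0.03 over all genes). Apcdd1, an inhibitor at the cell membrane, was lower with PLX4720 in 6 of 6 lines (log2 change -0.85 ± 0.13, edgeR adjusted p = 0.00245), and Ndp, which encodes the Fzd4 ligand Norrin, fell in metastasis lines (log2 change -2.10 ± 0.38, edgeR adjusted p = 0.00539), where Gpc4, a glypican, rose (log2 change 1.10 ± 0.20, edgeR adjusted p = 0.00634). Kremen1, a receptor for Dkk proteins, was higher in metastasis than in primary lines with PLX4720 (log2 difference 2.64 ± 0.27, edgeR adjusted p = 0.00302) and with DMSO (log2 difference 2.37 ± 0.33, edgeR adjusted p = 0.00828), and Tspan12, a partner of Fzd4, was lower with PLX4720 (log2 difference -6.31 ± 0.91, edgeR adjusted p = 0.00814) and with DMSO (log2 difference -5.35 ± 0.62, edgeR adjusted p = 0.00453). These values passed without any 1 line, and the Tspan12 difference was -6.99 without M1 (edgeR adjusted p = 0.0222) with PLX4720 and -4.64 without T1 (edgeR adjusted p = 0.00688) with DMSO.

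Of 17 further genes known as beta-catenin targets in liver or elsewhere, 13 could be tested, and 2 rose and 4 fell over all lines, where 27.2% of all genes passed (list median 0.02, against 0.03 over all genes). In metastasis lines 1 rose and 3 fell, where 20.4% of all genes passed. In primary lines Glul, the glutamine synthetase of pericentral hepatocytes, and Tbx3 rose and none fell, where 8.23% passed. Glul averaged 46.6 ± 11.9 CPM with PLX4720 and 58.8 ± 16.2 CPM with DMSO in metastasis lines (SD, n = 3 each). Across primary lines it averaged 296 ± 135 CPM with PLX4720 and 157 ± 70.2 CPM with DMSO, a rise (log2 change 0.93 ± 0.13, edgeR adjusted p = 0.0083) lost without T2 (log2 change 0.88, edgeR adjusted p = 0.0582). The response differed between sites (log2 difference -1.26 ± 0.19, edgeR adjusted p = 0.0135), lost without T2 (log2 difference -1.24, edgeR adjusted p = 0.0573). Ccnd1, the cyclin D1 gene, fell in metastasis lines (log2 change -0.92 ± 0.14, edgeR adjusted p = 0.00255) and over all lines (log2 change -0.57 ± 0.10, edgeR adjusted p = 0.00425). Sp5, a transcription factor, was lower in metastasis lines with PLX4720 (log2 difference -9.07 ± 1.59, edgeR adjusted p = 0.0146), lost without M2 or M3 (log2 difference -8.54 and -8.52, edgeR adjusted p = 0.058 and 0.051), and the value was -7.56 without T1 (edgeR adjusted p = 0.0337). Without M1 no fragment was left in metastasis lines, and against the floor it was at least 741-fold lower there (edgeR adjusted p = 0.0393). With DMSO it was lower (edgeR adjusted p = 0.00517), from 2 fragments in metastasis lines, a ratio of primary over metastasis lines of 1321 (95% counting interval 365 to 10912). Without T1 it had a ratio of primary over metastasis lines of 563 (95% counting interval 155 to 4654), with edgeR adjusted p = 0.00686. Glul was lower there with PLX4720 (log2 difference -2.65 ± 0.40, edgeR adjusted p = 0.00978), and Bambi, a membrane protein that blocks TGF-beta receptors, was higher (log2 difference 5.49 ± 0.90, edgeR adjusted p = 0.0119), and the value was 6.41 without T1 (edgeR adjusted p = 0.0171).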

How the data were processed

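Whole-transcriptome RNA sequencing of 12 libraries was analysed from the deposited tables, which hold raw fragment counts per gene that the authors made with featureCounts 1.5.2 in paired mode on exons of the Ensembl 84 annotation of GRCm38, per the file headers and the submitters' processing notes. No strand option is recorded, so fragments of genes that overlap on both strands cannot be told apart. No aligner is named here (not given in the sources used). Library totals were 31992512 to 39288748 fragments.

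Counts were tested in R 4.3.3 with edgeR 4.0.16 (filterByExpr, TMM scaling, quasi-likelihood F test, Benjamini-Hochberg adjustment over all genes tested, threshold 0.05). Comparisons of PLX4720 with DMSO used all 12 libraries, blocked by line, with treatment terms for each site. Comparisons of sites used the 6 libraries of 1 treatment, with no block. The libraries of a line deviated from their group means together (r = 0.794 to 0.900). Across sites, same-numbered lines did not (r = -0.0881 to 0.0628), and no source says that their numbers pair them. Standard errors are the size of the log2 change divided by the square root of F, and are approximate where counts are low. CPM values are counts over the TMM-scaled library size. Group values are mean ± SD of 3 lines. In comparisons of sites, p-values measure the spread among lines. In comparisons of PLX4720 with DMSO they measure the spread of the change within lines, pooled over both sites. No batch is given in the labels, and no libraries of a group had indistinguishable counts (lowest chi-square per degree of freedom 85.8).

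Members were taken by symbol, and the members and the other pathway lists were chosen with earlier results of these data known. Up to 8 members per direction past the threshold in a comparison, by size of the fitted change, and 8 transcripts known to be raised by beta-catenin were to be given in full, with up to 4 genes of each other list by p. Fzd7 and Lrp5 are outside the first 8 of their direction and were added. Floors are 3 fragments over a group, and 95% intervals of ratios are exact binomial ones, both for counting error only. Alternatives were DESeq2 1.42.0 (size factors, or its Wald test), other filters, fits with or without a block, fits on fewer or more libraries, unscaled CPM, and leaving out each line. The fits were also tested on simulated data with a fixed spread and no differences between lines. Real lines differ widely, so those runs do not show how the tests behave here. Start-site windows came from RefSeq.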

Additional observations from a re-analysis of the deposited data

Results flagged for a closer look

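The responses of 4 members to PLX4720 differed between metastasis and primary lines in the test of the difference itself. The difference of the log2 changes, metastasis minus primary, was -5.00 for Wnt7b, -2.60 for Dkk2, 1.54 for Fzd1 and 0.88 for Lrp6. The Dkk2 and Lrp6 differences were lost without single lines, as given with those genes.

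The change of Wnt2b with PLX4720 in M1 lay apart from those of the other lines. It was 0.904 on the log2(CPM + 1) scale in M1, against 0.267 to 0.404 in the other 5 lines. The gap to the nearest line was 0.785 of the range, above the 95% limit of Dixon's test for 6 values, which chance alone passes in about 1 in 20 groups. The rule was applied to each of the 20 members called over all lines, and only Wnt2b passed it. That is about as many as chance alone would give. In M1 Wnt2b had 40 fragments with PLX4720 and 4 with DMSO.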

How the results depend on the processing

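Under DESeq2 size factors, the DESeq2 Wald test, either other filter and the other sets of libraries, no member called lost its direction, and at most 3 of the calls of a comparison were lost. Counts that moved by over 1.5 times are these, members before all genes. Without the block for the cell line, PLX4720 against DMSO gave 1 and 18 over all lines (20 and 4496 with the block), 0 and 15 in metastasis lines (15 and 3378), 0 and 1 in primary lines (8 and 1362) and 0 and 0 for the difference between sites (4 and 487). At an unadjusted edgeR p below 0.05 these unblocked fits held 9 and 1516, 7 and 1196, 4 and 399, and 2 and 279. With only the libraries of a site, metastasis lines gave 2195 genes, and primary lines 16 and 2491. With no filter on low counts, primary lines gave 18 and 2052 and the difference between sites 8 and 996. The DESeq2 Wald test called 920 genes for that difference, and between sites 3163 with PLX4720 (against 2061) and 2974 with DMSO (against 1819). With the number of the line as a replicate block, 1106 genes differed between sites with DMSO, and 13 of 17 members kept their call with PLX4720 and 9 of 14 with DMSO. Those numbers pair no lines in the labels. With M2 and M3 summed, chosen after the data were seen, 7 members passed with PLX4720, and 5 members and 1177 genes with DMSO.

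Leaving out each line in turn, members called numbered 15 to 21 over all lines, 13 to 17 in metastasis lines, 1 to 16 in primary lines, 2 to 5 for the difference, 4 to 14 between sites with DMSO and 4 to 13 with PLX4720. Genes numbered 2417 to 4384, 1891 to 3090, 91 to 2252, 122 to 798, 901 to 1595 and 1097 to 1712 in that order. Directions turned only for values that had not passed. Lef1 over all lines was -0.0588 in the DESeq2 Wald test and ran from -0.43 to 0.76 with a line left out. Likewise Tcf7 in primary lines ran from -0.23 to 0.0875. In metastasis lines Axin2 ran from -0.65 to 0.35, Lef1 from -1.46 to 0.92, Rnf43 from -0.46 to 1.45 and Znrf3 from -0.22 to 0.0484. Between sites Nkd1 ran from -5.90 to 2.75 with PLX4720 and -8.84 to 2.02 with DMSO, and Notum from -2.49 to 0.0164 with PLX4720 and -2.35 to 0.43 with DMSO, the highest being without T1 each time. The lowest for Nkd1 with DMSO rests on 2 fragments in M2 and M3. The causes were not tested. Unscaled CPM moved none of 148 group means of named members by over 1 SD. With 3 lines a group, low transcripts rest on few fragments, and members under the filter were not tested.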
